A study of Mus musculus with 6 samples.

Results

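The response of a Ptbp1 knockout line to tumour necrosis factor (TNF) was compared, gene by gene, with the response of the basal and Rescue lines. The quantity described is the interaction value: the log2 ratio of the TNF library over the untreated library in the KO pair, minus the mean of that ratio in the basal and Rescue pairs. All 6 libraries of the series entered, as 3 pairs of libraries, and 13147 of 21675 genes had enough counts to be tested. The cells were a mouse aortic line of genotype Fn AB+/- that carries a doxycycline-inducible SV40 gene (TetOn-SV40). They were expanded with 2 ug/mL doxycycline, in serum or a serum substitute, and then plated without the drug. KO cells were a single clone with a CRISPR deletion of Ptbp1, and Rescue cells were given a human PTBP1 cDNA after that deletion. TNF was given at 30 ng/mL, for a time that the labels leave out. Each line and treatment was 1 library, so clone, line and library cannot be told apart and no value below has a replicate check.

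Libraries are called here by the names of their deposited files (basal, KO and Rescue, each without or with TNF), because these differ from the sample labels for 4 of 6 libraries. The basal library with TNF is labelled KO without TNF. The KO library is labelled Rescue, and the KO library with TNF is labelled WT with TNF. The Rescue library without TNF is labelled KO with TNF. Basal is taken to be the line labelled WT, which the file names do not say. Ptbp1 RNA was at 337, 388 and 173 CPM (expected counts relative to the scaled library size) in the untreated basal, KO and Rescue libraries and at 422, 425 and 187 CPM in those with TNF, so it was not lower in KO. Its paralogue Ptbp2, which Ptbp1 represses, was at 219 and 192 CPM in the KO pair, 38.1 and 37.8 CPM in the basal pair and 67.6 and 76.6 CPM in the Rescue pair. Both KO libraries were thus the highest for Ptbp2, as grouped by file name.

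Total expected counts were 19598773 to 21626838 per library. Most endothelial markers were near 0: Tie1, Cldn5, Emcn and Robo4 had at most 3 counts in any library, Pecam1 at most 0.576 CPM and Cdh5 at most 1.29 CPM, and the list's sum of 272 to 422 CPM was mostly Eng. The labelled endothelial type thus went against most of its defining markers. The fibroblast and progenitor list summed to 10700 to 27100 CPM, led by the collagens Col1a1 and Col1a2, while its member Fap had at most 5 counts in any library. Smooth muscle contractile genes summed to 3150 to 4190 CPM, so these sums name no single cell type. Thy1 was at 62.2 and 36.5 CPM in the basal pair and at most 0.197 CPM in the KO and Rescue libraries, and Cd34 was likewise high in the basal pair alone. Blood cell markers summed to 15.9 to 35.8 CPM, with Ptprc, Emr1, Itgam, Cx3cr1 and Cd3e at 3 counts or fewer in each library. Cd14, Cd68 or Lyz2 was the most abundant member, depending on the library, and 4 of the 10 members had at least 10 counts in every library. In bulk RNA, fewer cells of a kind and less RNA per cell cannot be told apart.

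TNF binds its receptor Tnfrsf1a, and adaptor and kinase complexes then free NF-kB from its inhibitors (IkB proteins), so that it enters the nucleus and switches on chemokines, adhesion molecules and its own inhibitors. Many cells given TNF also make a little type I interferon, which switches on antiviral genes, guanylate-binding proteins and antigen presentation. NF-kB binds kappaB sites in DNA, and factors that interferon activates bind the interferon-stimulated response element (ISRE). Ptbp1 is an RNA-binding protein that mostly represses exons.

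Promoters of 4 genes are shown because they cover both kinds of site and the different ways in which KO departed. Each is the stretch of 250 bases before the transcription start, from RefSeq's table for GRCm38.p6, read 5' to 3' along the gene. Capitals mark matches to the 10-letter kappaB site or to the ISRE core on either strand; the core is GAAA, any 2 bases and GAAA, and reads TTTC, any 2 bases and TTTC on the other strand. Gbp5, on the plus strand at chr3:142496684-142496933, has an ISRE match and, nearer the start, a kappaB match. Ifit1, on the plus strand at chr19:34640639-34640888, has 2 ISRE matches. Cxcl10, on the minus strand at chr5:92348890-92349139, has 1 ISRE match followed by 2 kappaB matches. Nfkbia, on the minus strand at chr12:55492648-55492897, has 1 kappaB match.
Gbp5: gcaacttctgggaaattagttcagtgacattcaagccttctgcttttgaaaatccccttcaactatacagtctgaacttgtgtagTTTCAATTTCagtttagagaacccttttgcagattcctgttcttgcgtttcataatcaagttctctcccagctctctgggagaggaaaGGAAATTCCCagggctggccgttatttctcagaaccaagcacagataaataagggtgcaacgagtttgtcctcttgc
Ifit1: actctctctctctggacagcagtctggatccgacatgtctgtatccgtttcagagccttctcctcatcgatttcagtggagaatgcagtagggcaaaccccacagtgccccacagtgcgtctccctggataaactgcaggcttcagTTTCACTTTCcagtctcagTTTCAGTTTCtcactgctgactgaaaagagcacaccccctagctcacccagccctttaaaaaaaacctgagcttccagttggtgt
Cxcl10: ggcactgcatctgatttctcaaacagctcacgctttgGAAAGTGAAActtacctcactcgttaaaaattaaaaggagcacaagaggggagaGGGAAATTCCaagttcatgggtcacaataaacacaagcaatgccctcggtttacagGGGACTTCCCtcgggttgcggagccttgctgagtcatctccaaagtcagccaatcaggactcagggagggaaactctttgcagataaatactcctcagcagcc
Nfkbia: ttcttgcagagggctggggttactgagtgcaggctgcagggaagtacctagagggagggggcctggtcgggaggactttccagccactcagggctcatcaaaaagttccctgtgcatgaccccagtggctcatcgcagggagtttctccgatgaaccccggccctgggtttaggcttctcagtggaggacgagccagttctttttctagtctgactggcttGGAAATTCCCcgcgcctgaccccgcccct

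The chemokine Ccl5, which draws T cells and monocytes, showed the lowest interaction value among genes with at least 10 counts in every library. It was at 7.55 CPM without and 1680 CPM with TNF in the basal pair, 2.62 and 769 CPM in the Rescue pair, and 33.9 and 92.0 CPM in the KO pair. KO was thus the highest line without TNF and the lowest with it. Its log2 TNF ratios were 7.78, 8.14 and 1.44 in basal, Rescue and KO, an interaction of -6.52 (counting SE 0.13; edgeR quasi-likelihood test, Benjamini-Hochberg adjusted p = 2.72e-06). The counting SE covers the counting of reads only.

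Gbp5, a guanylate-binding protein that acts in inflammasome defence, was at 1.12 and 124 CPM in the basal pair, 0.267 and 15 CPM in the Rescue pair, and 5.51 and 6.69 CPM in the KO pair. Its interaction was -5.75 (counting SE 0.35). Traf1, a signalling adaptor that NF-kB induces, was at 1.77 and 65.4 CPM in basal, 1.51 and 63.5 CPM in Rescue, and 3.94 and 21.6 CPM in KO. Its log2 TNF ratio in KO, 2.43, was well above 0 yet under those of basal (5.13) and Rescue (5.3). Nfkbia, the IkB protein that returns NF-kB to the cytoplasm, was at 61.1 and 439 CPM in basal, 58.4 and 372 CPM in Rescue, and 76.3 and 156 CPM in KO. The 3 untreated levels of Nfkbia lay close together, and KO stood apart under TNF, with an interaction of -1.72 (counting SE 0.05). By edgeR's quasi-likelihood test the adjusted p was 0.000114 for Gbp5, 0.00156 for Traf1 and 0.00156 for Nfkbia.

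**Figure D1:**
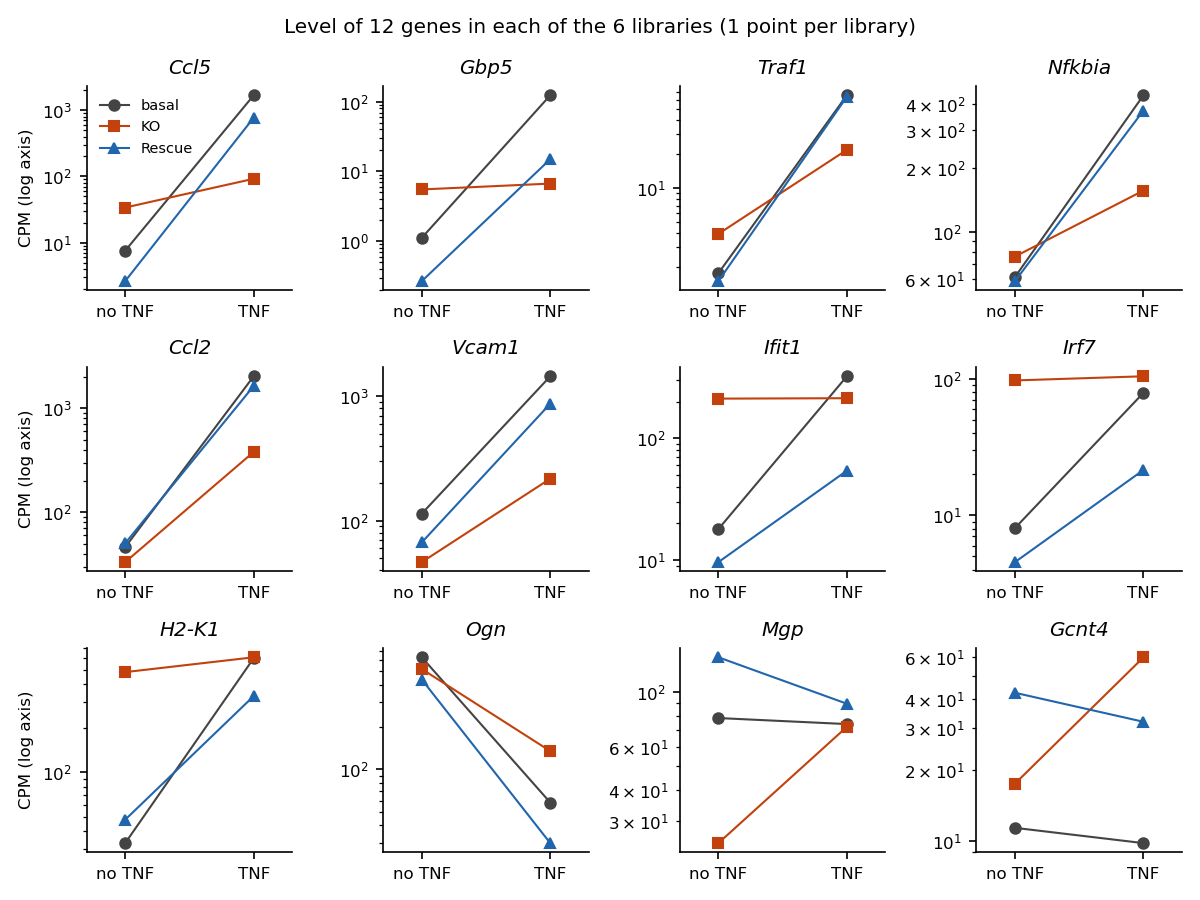
Level in CPM (log axis) of 12 genes without and with TNF, 1 point per library and 1 line per cell line (basal circles, KO squares, Rescue triangles). KO lines are flatter for Ccl5, Gbp5, Traf1, Nfkbia, Ccl2, Ifit1, Irf7 and H2-K1, and for Ifit1, Irf7 and H2-K1 the untreated KO level already lies far above the other 2 untreated levels.

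Across all genes, the KO ratio lay below both other ratios by at least 1 on the log2 scale for 404 genes (3.07% of those tested) and above both by at least 1 for 208 (1.58%), which is called the fold rule below. The same rule found 245 lower (1.86%) and 294 higher (2.24%) for basal, and 102 lower (0.776%) and 111 higher (0.844%) for Rescue. Basal thus had a total near that of KO with more genes on the higher side, and Rescue had fewer on both sides. The interaction had a median of 0.01 and a median size of 0.18 over all genes. At the edge of the rule, H2-T23 and Slco2a1 lay just inside at -1.0 and Scube3 and Nrp2 just outside at -0.99. On the other side Prrt2 and Igfbp6 lay just inside, and Gstm7 and Il17rd just outside, all rounding to 1.0.

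edgeR's quasi-likelihood test called 158 genes with a lower response in KO (1.2% of those tested) and 66 with a higher one (0.502%), at a Benjamini-Hochberg adjusted p under 0.05. The model has 1 residual degree of freedom, set by how far the TNF responses of basal and Rescue differ, so its p-values treat these lines as replicates of each other. Of the 224 genes called, 160 also lay outside both other ratios by at least 1. Every count named as called below is from that test. With the groups of the sample labels it called 0 genes, with 841 at an unadjusted p under 0.05. Many calls hang on the processing. With DESeq2's size factors in edgeR's test, those of Tnfaip3, Tnfaip2, Ccl9, Alcam, Lif, Jak2, B2m, Isg15, Sod2, Prss22 and Adamts4 were lost, at adjusted p from 0.0546 to 0.0975. In the second deposited quantification edgeR's calls of Nfkbie, Ikbke, Ccl2, Ccl8, Cx3cl1, Cxcl10, Cfb, Ass1, Irf7, Ifit1, H2-K1, Psmb8, Col3a1, Mgp and Aldh3a1 were lost as well, at adjusted p from 0.0587 to 0.158. DESeq2's own test did not call Ifi44, Ifit1, Isg15, Psmb8, H2-K1, Cxcl10, Cx3cl1, Ccl9, Alcam, Lif, Sod2, Omd, Adamts4 and Prss22, at adjusted p from 0.0652 to 0.693. Other settings gained calls: DESeq2's test called Ccl7 (adjusted p = 0.00609), Csf1 (0.0292) and Mmp3 (0.0108), and edgeR's test without a filter on low counts called Ccl7 (0.0386), Csf1 (0.0441), Cxcl1 (0.0367) and Bcl3 (0.049).

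**Figure D2:**
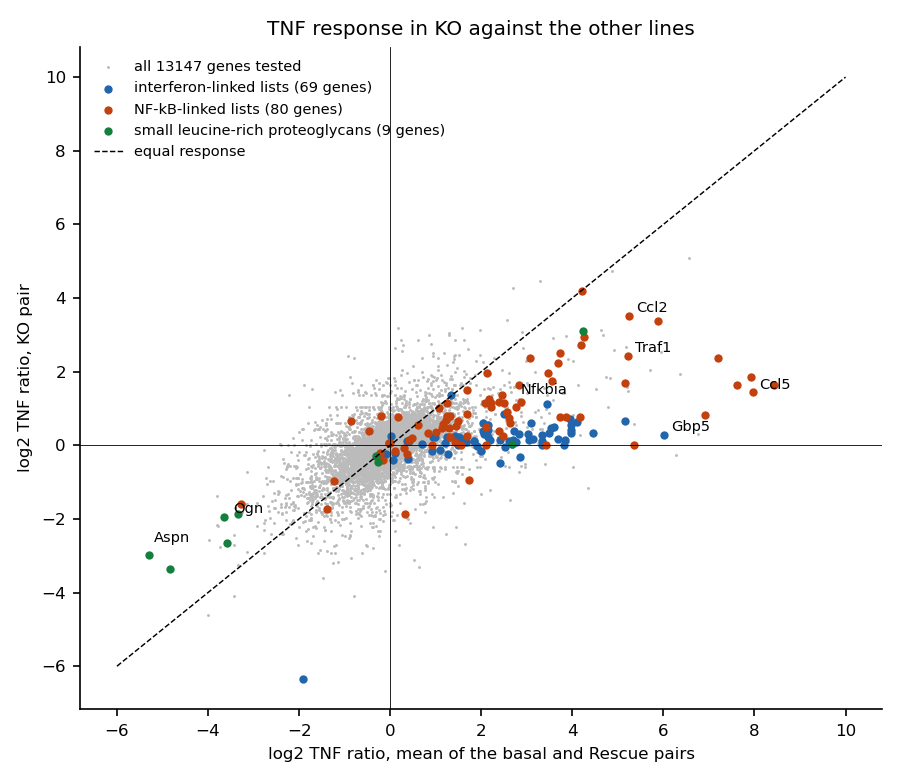
log2 TNF ratio of each of the 13147 genes tested in the KO pair (vertical) against the mean of the basal and Rescue pairs (horizontal), with the dashed line at equal response. The 4 interferon-linked lists (GTPases, antiviral effectors, RNA sensors with IRF and STAT factors, MHC class I) lie along a KO ratio near 0, most members of the 7 NF-kB-linked lists (NF-kB and IkB, feedback genes, chemokines, adhesion, cytokines, inflammatory enzymes) lie between 0 and the dashed line, and several small leucine-rich proteoglycans lie above the line at negative ratios. The point at a KO ratio of -6.35 is Tgtp1, whose reads cannot be separated from those of its near-identical copy Tgtp2.

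Genes were also chosen in a pair of lines and read in the third, which the choice did not use. Of 472 genes with a log2 TNF ratio of at least 1 in both basal and Rescue (median 1.95), 35.2% also reached 1 in KO, where their median was 0.66. Of 211 genes chosen in KO and Rescue, 78.7% reached 1 in basal, with a median of 1.98. Of 207 chosen in KO and basal, 80.2% reached 1 in Rescue, with a median of 1.75. The 166 genes at or above 1 in all 3 lines are the same in each of these shares. For genes at or below -1 the shares were 51% of 384 genes in KO, 68.5% of 286 in basal and 63% of 311 in Rescue. KO had the smallest share on both sides, and these shares carry no test. Among the 404 genes, 197 had a ratio of at least 1 in both other lines and under 1 in KO, 46 had at least 1 in all 3 lines, and 90 had a ratio of at most -1 in KO alone.

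The interaction equals the KO difference from the mean of the other lines under TNF minus the same difference without TNF, so a gene reaches a low interaction through a KO level that is high without TNF, low with TNF, or both. Of the 404 genes with the lowest KO ratio, 231 (57.2%) had a KO level lower by at least 1 with TNF and not higher by 1 without it. Their median difference was -2.31 with TNF and -0.25 without it, and 46 of them were lower in KO by at least 1 without TNF too. Another 116 (28.7%) had a KO level higher by at least 1 without TNF and not lower by 1 with it. Their median difference was 2.21 without TNF and 0.24 with it, and 20 of them, Ifi44 and Usp18 among these, were higher in KO by at least 1 with TNF too. In 24 genes KO was higher by at least 1 without TNF and lower by at least 1 with it, and in 33 it differed by less than 1 in each state. Ccl5, Gbp5 and Traf1 belong to the 24, and Nfkbia to the 231. Restricted to genes with at least 10 counts in all 6 libraries, a rule added after the data were seen, 83 of the 231 and 70 of the 116 were left.

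**Figure D3:**
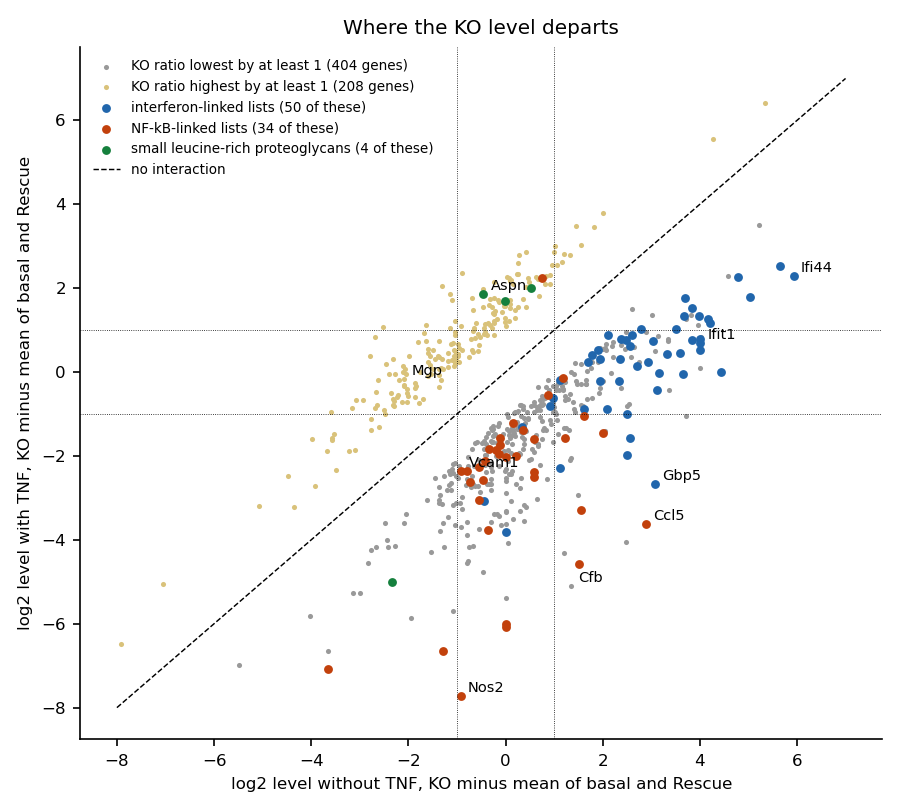
KO minus the mean of basal and Rescue with TNF (vertical) against the same difference without TNF (horizontal), in log2 units, for the 404 genes with the lowest and the 208 with the highest KO ratio; dotted lines mark 1 and -1, and the dashed line marks equal differences. Interferon-linked genes spread to the right, where KO is higher without TNF, and NF-kB-linked genes spread downwards, where KO is lower with TNF.

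Members of the 4 interferon-linked lists fell on the lower side by the fold rule in 50 of 69 tested genes and on the higher side in 0. For the 7 NF-kB-linked lists the counts were 33 and 1 of 80. The background of that rule is 3.07% and 1.58% as given above, and the median interaction over all genes is 0.01. For edgeR's calls, counted list by list below, the background is 1.2% lower and 0.502% higher. These lists were chosen with earlier results of the data known, so their counts describe them and test nothing.

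NF-kB subunits and their inhibitors had 10 members tested, all with an interaction below 0 and a median of -0.66. Lower by the fold rule were 4 and higher 0, and edgeR called 3 lower. Rela, the main activating subunit, was at 98.0 and 211 CPM in basal, 79.4 and 148 CPM in Rescue and 82.8 and 106 CPM in KO, an interaction of -0.64 that did not pass. Relb, the subunit of the slower non-canonical arm, was at 19.2 and 107 CPM in basal, 12.6 and 73.7 CPM in Rescue and 17.2 and 38.4 CPM in KO (interaction -1.35, called). Nfkbie, another inhibitor, was called at -1.5, while Bcl3 had the lowest value, -1.88, and did not pass. Nfkb2 had the value nearest to 0, -0.45. The median KO difference was 0.07 without TNF and -0.68 with it.

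Feedback genes and TRAF adaptors showed 4 of 17 lower by the fold rule, 0 higher and 4 called lower, with a median of -0.53. Tnfaip3 (A20), which removes ubiquitin chains to end signalling, was at 37.5 and 372 CPM in basal, 28 and 150 CPM in Rescue and 24.2 and 54.6 CPM in KO. Its interaction of -1.69 was called (edgeR quasi-likelihood adjusted p = 0.0332). Its partner Tnip1 was called at -1.62 and Tnfaip2 at -1.22. Traf5 went the other way, at 14.7 and 13.1 CPM in basal, 15.2 and 13.1 CPM in Rescue and 11.8 and 20.5 CPM in KO, and its interaction of 0.99 did not pass.

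Receptors and receptor-proximal signalling genes were mostly near 0, with a median of -0.17. Over all genes tested 3.07% were lower by the fold rule and 1.2% were called lower. Here 1 of 22 was lower by the fold rule and the same gene was called, which is little above those shares. That gene was Ikbke, an IkB kinase-related kinase that also phosphorylates interferon regulatory factors, at 19.4 and 67.2 CPM in basal, 14.0 and 42.7 CPM in Rescue and 12.3 and 13.5 CPM in KO (interaction -1.56). The receptor Tnfrsf1a itself was at 165 and 150 CPM in KO, 184 and 177 CPM in basal and 128 and 124 CPM in Rescue, so the KO level lay between those of the other lines in both states. Ripk1, the kinase recruited to the receptor, was at 25.7 and 22.2 CPM in KO and 59.7 to 68.3 CPM in the other 4 libraries. It was lower in KO in both states and its interaction was -0.24.

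CC chemokines had 7 members tested, of which 3 were lower by the fold rule and 4 were called lower, with a median of -1.22. Ccl2, which draws monocytes, was at 46.1 and 2030 CPM in basal, 50.3 and 1640 CPM in Rescue and 33.1 and 381 CPM in KO (interaction -1.72, called). Its KO ratio of 3.52 was still the largest KO ratio in this list. Ccl7 had -1.22 and missed edgeR's test but not DESeq2's, while Ccl8 was at 0.394 and 2.43 CPM in KO against 32.5 and 18.4 CPM under TNF in basal and Rescue and was called. Ccl9 was called at -0.92. Ccl3, Ccl4, Ccl11 and Ccl17 did not pass the filter on low counts.

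CXC and CX3C chemokines had 10 members tested, with 5 lower by the fold rule, 2 called lower and a median of -1.61. The median was -0.84 over the 5 members with at least 10 counts in every library. Cxcl10, which draws activated T cells and is a target of both NF-kB and interferon, was at 3.29 and 193 CPM in basal, 3.47 and 80.2 CPM in Rescue and 13.9 and 45.6 CPM in KO (interaction -3.46, called). Cx3cl1, a membrane-bound chemokine, was called at -0.84, and the neutrophil chemokine Cxcl1 had -1.19 and did not pass. Cxcl16 ran close to the other lines, with log2 TNF ratios of 3.89, 4.52 and 4.2 in basal, Rescue and KO. Cxcl12 had lower levels with TNF in all 3 lines, at 2420 and 1230 CPM in KO, and an interaction of 0.27.

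Among leukocyte adhesion molecules 4 of 11 were lower by the fold rule, with a median of -1.21 that was -0.24 over the 7 members with at least 10 counts throughout. Vcam1, which holds monocytes and lymphocytes, was at 114 and 1450 CPM in basal, 67.0 and 872 CPM in Rescue and 46.5 and 218 CPM in KO (interaction -1.46, called). Icam1 was scarce, at 24.9 CPM with TNF in basal, 3.07 CPM in Rescue and 2.53 CPM in KO, and did not pass. Cd44, the hyaluronan receptor, had a like response in all lines, with ratios of 1.21, 0.94 and 1.0 in basal, Rescue and KO. Alcam was called in the other direction, at 73.5 and 96.5 CPM in KO against 25.9 and 18.5 CPM in basal and 26.7 and 19.5 CPM in Rescue (interaction 0.86).

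Of 12 cytokines tested, 4 were lower and 1 higher by the fold rule, 1 was called lower and the median was -1.01, or -0.58 over the 6 members with at least 10 counts throughout. The called gene was Lif, a cytokine of the interleukin-6 family, at 4.36 and 66.6 CPM in basal, 3.64 and 82.2 CPM in Rescue and 3.69 and 24.9 CPM in KO (interaction -1.46). Csf1, the macrophage growth factor, was at 851 and 2260 CPM in basal, 734 and 1650 CPM in Rescue and 1210 and 1680 CPM in KO, and its -0.81 did not pass edgeR's test but passed DESeq2's. Il34, which shares a receptor with Csf1, had ratios of 1.27, 1.24 and 1.15 in basal, Rescue and KO. Il33 was the 1 gene on the higher side, at 1.51, and did not pass.

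Inflammatory enzymes and acute-phase genes had 9 of 13 members lower by the fold rule, 3 called lower and a median of -1.81, or -1.54 over the 6 members with at least 10 counts throughout. Several were all but confined to the basal and Rescue TNF libraries. Nos2, the inducible nitric oxide synthase, was at 150 CPM with TNF in basal, 27 CPM in Rescue and 0.203 CPM in KO, and at most 0.253 CPM without TNF. Irg1, the itaconate enzyme, was at 45.2, 8.08 and 0.203 CPM in the same 3 TNF libraries, and Saa3, an acute-phase protein, at 105, 5.16 and 0.253 CPM. KO levels near 0.2 CPM are close to what 3 counts give (0.139 to 0.153 CPM), so no fold is given.

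Ch25h, which makes an oxysterol with antiviral action, was at 39.8 CPM in basal and 5.16 CPM in Rescue under TNF and at 0.507 CPM in KO. Sod2, the mitochondrial superoxide dismutase and a classical NF-kB target, was at 33.6 and 274 CPM in basal, 51.0 and 194 CPM in Rescue and 48.3 and 57.9 CPM in KO (interaction -2.21). Ass1, the arginine-recycling enzyme, was at 234 and 873 CPM in basal, 128 and 354 CPM in Rescue and 319 and 381 CPM in KO (-1.43). Ch25h, Sod2 and Ass1 were the 3 called. Ptges, a prostaglandin synthase, differed from them, with ratios of 2.25, 2.01 and 1.97 in basal, Rescue and KO. Its level was nevertheless lower in KO in both states, at 1.67 and 6.84 CPM against 28 and 134 CPM in basal and 14.9 and 60.4 CPM in Rescue.

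Complement genes had 4 of 10 lower and 1 higher by the fold rule and 3 called lower, with a median of -1.38 that was -0.38 over the 7 members with at least 10 counts throughout. Cfb, the factor B of the alternative pathway, was at 66.3 CPM in basal, 6.4 CPM in Rescue and 0.507 CPM in KO under TNF and at most 0.394 CPM without it. C3, on which all complement pathways converge, did not pass: its KO level went from 3.05 to 107 CPM, a ratio of 5.09 next to 5.27 in basal and 7.84 in Rescue. C1s was at 263 and 722 CPM in basal, 63.7 and 163 CPM in Rescue and 74.3 and 58.7 CPM in KO (interaction -1.74, called). C1s and C1ra have near copies in the mouse genome, so their read assignment is uncertain.

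Guanylate-binding proteins and immunity-related GTPases, which attack vacuoles that hold pathogens, had 14 of 17 members lower by the fold rule and 10 called lower. The median interaction was -2.97, or -2.84 over the 10 members with at least 10 counts throughout. Among the 14 were Gbp4, with 0 counts in both KO libraries, and Tgtp1, with 0 counts in KO with TNF. Over the 17 members the median log2 TNF ratio was 3.84 in basal, 1.93 in Rescue and 0.15 in KO. The median KO difference was 2.56 without TNF and -0.44 with it. Basal ratios exceeded Rescue ratios here, and the median interaction was -3.63 against basal alone and -2.08 against Rescue alone.

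Gbp2 was at 55.3 and 998 CPM in basal, 16.2 and 221 CPM in Rescue and 65.5 and 95.7 CPM in KO (interaction -3.42; edgeR quasi-likelihood adjusted p = 0.000133). Gbp3 was at 18.1 and 393 CPM in basal, 7.87 and 89.5 CPM in Rescue and 104 and 139 CPM in KO (-3.55). Under TNF the KO level of Gbp2 was below both others, while that of Gbp3 lay between them. Irgm2 was at 131 and 127 CPM in KO against 30.2 and 244 CPM in basal and 13.2 and 53.7 CPM in Rescue (-2.57). Irgm1 did not meet the rule, since its Rescue ratio of 0.28 was close to the KO ratio of 0.06. Gbp6, Gbp10 and Gbp11 share reads with each other and Tgtp1 with Tgtp2, which makes their single values uncertain.

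Antiviral effectors showed 18 of 23 members lower by the fold rule, 16 called lower and 0 higher, with a median of -2.34. The median KO difference was 3.7 without TNF and 0.77 with it, so the median member was higher in KO than the mean of the other lines in both states. Whether KO with TNF lay above or below basal with TNF differed between members. Ifit1, which binds foreign RNA caps, was at 17.9 and 323 CPM in basal, 9.6 and 54.1 CPM in Rescue and 212 and 214 CPM in KO. Its KO levels without and with TNF were nearly equal, at a log2 ratio of 0.01, and the interaction was -3.31. Isg15, a ubiquitin-like modifier, was at 128 and 155 CPM in KO against 7.65 and 143 CPM in basal and 6.09 and 33.4 CPM in Rescue (-3.05). Ifi44 was at 118 and 147 CPM in KO, 2.79 and 100 CPM in basal and 1.2 and 9.02 CPM in Rescue (-3.64).

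Zbp1, a sensor of Z-form nucleic acid, was at 5.61 and 8.97 CPM in KO, 1.22 and 81.7 CPM in basal and 0.667 and 15.7 CPM in Rescue, so that unlike Ifit1 it was the lowest in KO under TNF (interaction -4.5). Of the 16 calls, several rest on the choice of tool: DESeq2's test gave an adjusted p of 0.405 for Ifit1, 0.693 for Isg15 and 0.665 for Ifi44, with interactions of like size. edgeR's quasi-likelihood adjusted p was 0.0133 for Ifit1, 0.0182 for Isg15 and 0.00486 for Ifi44.

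RNA sensors, IRF and STAT factors had 8 of 15 lower by the fold rule, 7 called lower and a median of -1.39. Irf7, the regulator that amplifies interferon production, was at 97.7 and 105 CPM in KO, 8.06 and 79.3 CPM in basal and 4.53 and 21.5 CPM in Rescue (interaction -2.65, called). Irf1, a direct NF-kB target, followed another course: its untreated levels were 59.1, 49.8 and 68.7 CPM in basal, Rescue and KO, and under TNF they were 288, 171 and 89.3 CPM (-1.66, called). Irf3, the latent factor that does not depend on interferon for its level, had an interaction of 0.24.

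Interferon ligands, receptors and JAK-SOCS genes had a median of -0.44. By the fold rule 1 of 11 was lower, and it was called, against 3.07% and 1.2% of all genes tested. That gene was Jak2, at 63.8 and 360 CPM in basal, 42.3 and 126 CPM in Rescue and 46.0 and 54.5 CPM in KO (interaction -1.79). Messenger RNA of the ligands was scarce: Ifnb1 had at most 4 counts in any library and Ifng at most 1. The receptor chains Ifnar1 and Ifnar2 were at 123 and 56.7 CPM in untreated KO, next to 118 and 53.9 CPM in untreated basal and 94.4 and 38.7 CPM in untreated Rescue.

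Genes of MHC class I presentation, which shows peptides to CD8+ T cells, had 10 of 14 lower by the fold rule, 10 called lower and a median of -1.66. The median KO difference was 1.66 without TNF and -0.03 with it. H2-K1, a heavy chain, was at 482 and 608 CPM in KO, 33.0 and 599 CPM in basal and 47.6 and 331 CPM in Rescue (interaction -3.15, called). B2m, the light chain, was at 1310 and 1430 CPM in KO, 384 and 1520 CPM in basal and 421 and 968 CPM in Rescue (-1.47, called). Psmb8, a subunit of the immunoproteasome, was at 14.9 and 16.8 CPM in KO, 2.59 and 67.2 CPM in basal and 2.49 and 16.9 CPM in Rescue (-3.51, called). H2 genes are near copies of one another, and their single values are uncertain for that reason, H2-Gs10 (-3.89) included.

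**Figure D4:**
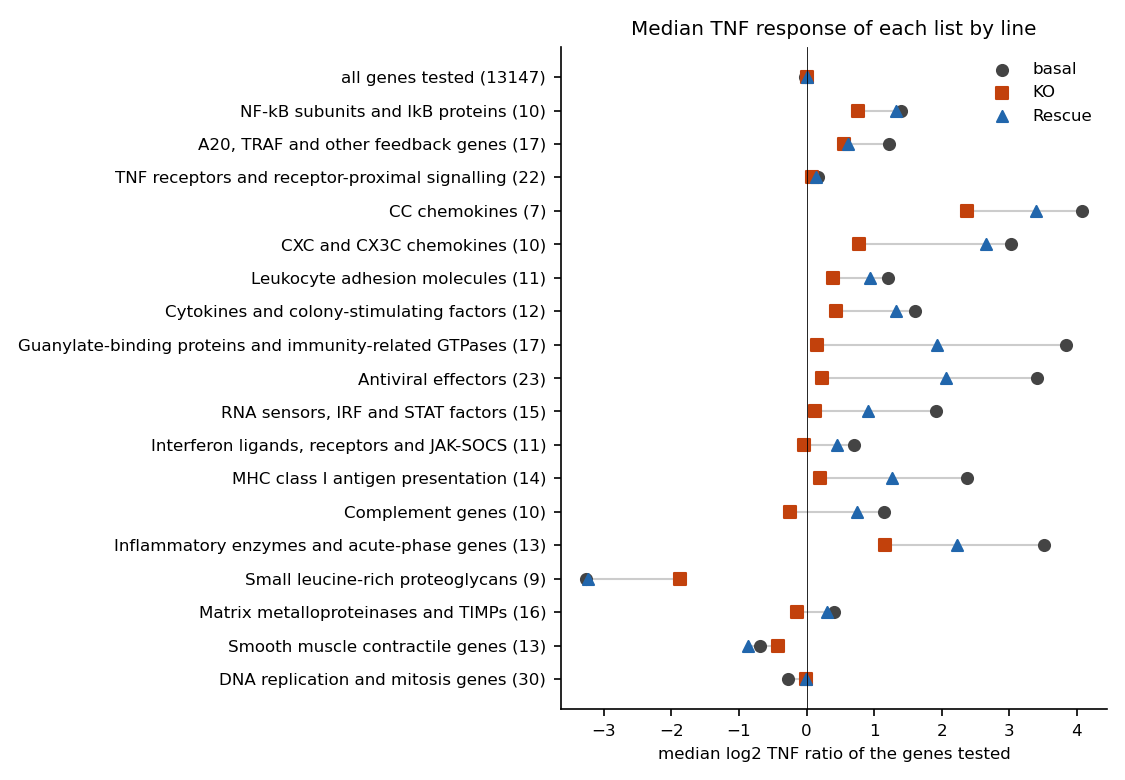
Median log2 TNF ratio (horizontal) in basal (circles), KO (squares) and Rescue (triangles) of the members tested in each list, with the number tested in brackets. KO medians lie near 0 for the GTPases (0.15 against 3.84 in basal and 1.93 in Rescue) and antiviral effectors (0.23 against 3.41 and 2.06), while CC chemokines keep a KO median of 2.37 against 4.08 and 3.39.

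Promoter motifs were counted in these classes of genes. The window searched ran from 250 bases before to 50 after the start, and 9284 of the 13147 genes tested had a promoter in the table. Of the 74 promoters matched among the 116 genes above, higher in KO without TNF, 35.1% held an ISRE core and 10.8% a kappaB site. Of the 153 matched among the 231 genes above, lower in KO with TNF, 5.88% held an ISRE core and 19.6% a kappaB site. Over all genes tested the shares were 3.69% and 6.72%, and 3.99% and 5.14% over all 27025 genes that the RefSeq table holds. No test was made of these shares.

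By list, 9 of 10 matched GTPase promoters held an ISRE core, as did 9 of 16 of antiviral effectors. Of 8 matched promoters of NF-kB and IkB genes, 6 held a kappaB site and 0 an ISRE core. Other lists were less clear-cut. A kappaB site was found for 5 of 15 feedback genes, 2 of 6 CC chemokines and 4 of 10 CXC and CX3C chemokines. It was found for 1 of 8 adhesion molecules, 3 of 14 cytokines and 3 of 11 inflammatory enzymes. Of 13 MHC class I promoters, 4 held a kappaB site and 4 an ISRE core. Of 16 for RNA sensors, IRF and STAT factors, 5 held an ISRE core and 3 a kappaB site. In the promoters printed above, Ifit1, with ISRE matches and no kappaB match, is one of the 116 genes, and Nfkbia, with a kappaB match and no ISRE match, one of the 231. Gbp5 and Cxcl10 hold both kinds of match and are among the 24, higher in KO without TNF and lower with it. Of the 14 matched promoters of those 24 genes, 3 held a kappaB site and 5 an ISRE core. No other gene among them held both kinds. These are matches of letters in a window and show no binding.

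**Figure D5:**
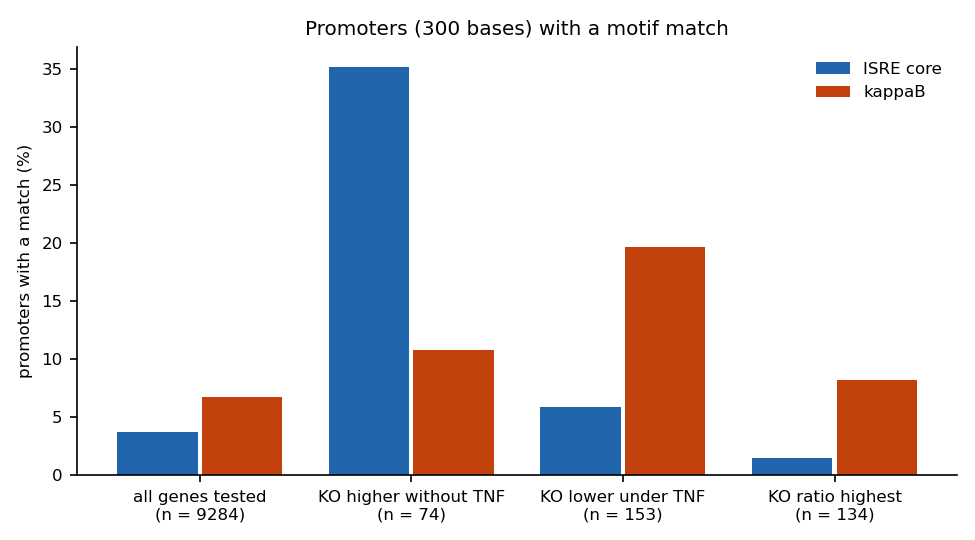
Share of promoters (percent, bars from 0) with an ISRE core or a kappaB site, for all genes tested, the 116 genes higher in KO without TNF and not lower with it, the 231 genes lower in KO with TNF and not higher without it (each by at least 1 on the log2 scale), and the 208 genes with the highest KO ratio; n is the number of genes with a promoter in the table. ISRE matches reach 35.1% in the genes higher without TNF, and kappaB matches 19.6% in the genes lower under TNF.

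Genes with a higher ratio in KO fell into several kinds. Of the 208, 76 had a ratio of at most -1 in both other lines and above -1 in KO, 64 had a ratio of at least 1 in KO alone, and 5 combined both. Their promoters held a kappaB site in 8.21% and an ISRE core in 1.49% of 134 matched genes. In 100 of them (48.1%) the KO level was lower by at least 1 without TNF (median difference -2.03) and not higher by 1 with it, and 17 of these were lower by at least 1 with TNF too. In 80 (38.5%) it was higher by at least 1 with TNF (median difference 1.76) and not lower by 1 without it, and 11 of these were higher without TNF too. Of these 100 and 80, 24 and 44 had at least 10 counts in all 6 libraries.

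Small leucine-rich proteoglycans, which space and bind collagen fibrils, had 3 of 9 members higher and 1 lower by the fold rule, 3 called higher and a median of 0.95, or 1.46 over the 7 members with at least 10 counts throughout. Ogn was at 629 and 58.1 CPM in basal, 436 and 29.8 CPM in Rescue and 519 and 135 CPM in KO (interaction 1.71). Aspn was at 82.2 and 1.73 CPM in basal, 118 and 3.42 CPM in Rescue and 71.7 and 9.07 CPM in KO (2.31; edgeR quasi-likelihood adjusted p = 0.00227). Omd was the third call, at 1.47. Untreated levels of Ogn and Aspn were alike across lines, and the KO level with TNF was the highest. Fmod (1.46) and Prelp (0.95) did not pass, and Bgn, at 3150 to 4690 CPM throughout, had an interaction of 0.01. Dcn and Lum went the other way, at -1.14 and -2.66, from low levels in KO, and did not pass.

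Col3a1, a fibrillar collagen, was called higher, at 1700 and 598 CPM in basal, 771 and 306 CPM in Rescue and 1850 and 1490 CPM in KO (interaction 1.11). Peg10, an imprinted gene derived from a retrotransposon, was at 206 and 38.2 CPM in basal, 395 and 104 CPM in Rescue and 241 and 214 CPM in KO (2.0). Aldh3a1, an aldehyde dehydrogenase, was at 23 and 3.69 CPM in basal, 16.1 and 3.77 CPM in Rescue and 38.5 and 27.8 CPM in KO (1.87). These 3 genes had TNF ratios between -0.47 and -0.17 in KO and below -1 in both other lines.

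Mgp, the matrix Gla protein that inhibits calcification of arteries, was at 78.4 and 74.1 CPM in basal, 138 and 89.5 CPM in Rescue and 24.5 and 72.2 CPM in KO (interaction 1.91, called). Gcnt4, a glycan-branching enzyme, was at 11.4 and 9.84 CPM in basal, 42.3 and 31.9 CPM in Rescue and 17.5 and 59.7 CPM in KO (2.07, called). Both had a positive ratio in KO alone, Mgp from the lowest untreated level and Gcnt4 from a middle one. Prss22, a serine protease, had the highest value among genes with at least 10 counts in every library, 3.36, from levels of 1.03 and 5.98 CPM in KO. It was called (edgeR quasi-likelihood adjusted p = 0.0445). The natriuretic peptide clearance receptor Npr3 had 2.44 and did not pass, since its ratio also differed between basal (-4.95) and Rescue (-2.66).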

How the data were processed

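Per the labels, libraries came from a SMARTER mRNA kit. Per the file headers, the authors deposited expected counts and TPM for genes; the submitters' processing notes name RSEM, and its version, the aligner and the build are not given. For the KO library the deposited expected counts are per transcript and were summed by gene. A second quantification deposited by the authors, with estimated counts per gene, was matched by symbol for 21303 of 21675 genes and served as an alternative. The splicing and junction files were not used here.

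Expected counts were rounded, filtered with edgeR's filterByExpr and scaled by TMM (factors 0.966 to 1.041). CPM of single genes are scaled by these factors, and log2 ratios use a prior count of 2. The summed CPM of marker lists and the CPM that 3 counts give use unscaled library totals. The interaction was tested with edgeR 4.0.16 (R 4.3.3) as line, TNF and TNF in KO. The test was checked on simulated counts with known changes, in which basal and Rescue had the same TNF effect. Among known changes in KO it called 11.9% at a log2 of 1, 88.7% at 2 and 97.2% at 3. It made 4 false calls. The check does not cover basal and Rescue responses that differ, so it does not show how the test did on the real data. DESeq2 1.42.0, limma 3.58.1, other filters, prior counts, thresholds and groupings were alternatives.

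Members and lists were chosen with earlier results of these data known. Genes named are the 4 markers, the 15 lowest and 15 highest interactions with at least 10 counts everywhere, 8 each way among genes with under 10 counts in a library and at least 10 CPM in another, and in each list the extremes, the most abundant members and those against its median. Others named in the text were chosen after their values were seen. Promoters came from RefSeq's GRCm38.p6 table, matched by symbol. Some genes of the lists are not reported here.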

Additional observations from a re-analysis of the deposited data

Results flagged for a closer look

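The interaction itself, KO against basal and Rescue, was tested with edgeR's quasi-likelihood test and Benjamini-Hochberg adjustment. That test found 158 genes (1.2% of those tested) with a lower TNF response in KO and 66 (0.502%) with a higher one. It has 1 residual degree of freedom and treats basal and Rescue as replicates of each other. The 4 markers of the comparison were among those with a lower response: Ccl5 at -6.52, Gbp5 at -5.75, Traf1 at -2.79 and Nfkbia at -1.72 on the log2 scale. These markers were chosen with earlier results of the data known, so their being called tests nothing. For each of these 4 the KO ratio lay below both other ratios, in the 1 pair of libraries that each line has.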

How the results depend on the processing

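With 1 library per line and treatment, no library can be left out of a pair, and leaving out a pair leaves no residual degree of freedom, so KO was set against basal or Rescue alone as values with no test. Each TNF library is compared with the untreated library of its own line throughout, and a block by replicate could not be added because the labels give no replicate numbers.

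The 404 lower and 208 higher genes by the fold rule became 918 and 945 with the groups of the labels, 758 and 560 at 1.5-fold, 109 and 18 at a log2 of 2, and 186 and 84 with at least 10 counts in every library, an alternative chosen after seeing the data. KO against basal alone gave 774 and 620, KO against Rescue alone 588 and 391, and no filter 565 and 386. edgeR's 158 lower and 66 higher calls became 86 and 30 with DESeq2's size factors, 41 and 12 in the second quantification, and 0 and 0 with the labels' groups (841 at an unadjusted p under 0.05). DESeq2's test gave 102 and 32, and limma-voom 115 and 42. Of the 224 calls, DESeq2 shared 120, limma-voom 156 and edgeR with DESeq2's size factors 116. All 222 matched in the second quantification had the same sign there, but it counts the same libraries and is no independent check. By the fold rule, 275 of 385 matched lower genes and 126 of 203 matched higher genes met the rule again in it.

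The 116 genes higher in KO without TNF and not lower with it were 203 with no filter, 276 by the labels and 70 with at least 10 counts. The 231 lower with TNF and not higher without it were 75 by the labels and 83 with at least 10 counts, and the 24 that were both were 41 and 13 at prior counts of 0.5 and 5, 387 by the labels and 9 with at least 10 counts. By the labels, medians in the third line were -1.22, -0.53 and -0.37 for KO, basal and Rescue; at a threshold of 2 they were 3.9 for basal and 3.55 for Rescue. Medians by the labels were -2.54 for NF-kB and IkB genes, -6.9 for CC chemokines, -5.35 for GTPases and -5.21 for antiviral effectors. Against basal alone GTPases had -3.63 and antiviral effectors -3.24, and against Rescue alone -2.08 and -1.58. By the labels the sign turned for Lipg (-1.01), Gfra2 (-5.85), 5730409E04Rik (-0.91), Mmp2 (-0.52), Ctsk (-2.39), Ptbp2 (0.43), Traf5 (-0.1) and Ripk1 (0.11), and in the second quantification for Il34 (0.04). The cause of these changes was not tested. Counting error limits the genes near 0 CPM, whose interaction moves with the prior count.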

Other observations

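Matrix metalloproteinases and their inhibitors had 5 of 16 members lower and 1 higher by the fold rule, 1 called lower by edgeR (Adamts4, -1.23) and a median interaction of -0.41, or -0.12 over the 11 members with at least 10 counts throughout. Mmp3, which cleaves many matrix proteins, was at 9.43 and 245 CPM in basal, 3.16 and 65.7 CPM in Rescue and 0.344 and 1.17 CPM in KO. Mmp3 did not pass edgeR's test and passed DESeq2's (adjusted p = 0.0108), which did not call Adamts4 (adjusted p = 0.503). Mmp13, a collagenase, was at 4.17, 15.8 and 1.32 CPM in the TNF libraries of basal, Rescue and KO. Timp1 ran alike in all lines, with ratios of 1.0, 0.87 and 0.82 in basal, Rescue and KO. Mmp2 had 0.344 and 0.608 CPM in KO against 233 and 180 CPM in basal and 48.8 and 22.0 CPM in Rescue, so its interaction of 1.43 rests on few counts.

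DNA replication and mitosis genes had 0 of 30 members past the fold rule in either direction, 0 called and a median interaction of 0.14. Over all genes tested the fold rule took 3.07% lower and 1.58% higher, so 0 in a list this short says little. Levels of the replication and mitosis genes were higher in KO in both states, by a median of 0.76 without and 0.89 with TNF on the log2 scale. Mki67 was at 507 and 492 CPM in KO, 203 and 147 CPM in basal and 350 and 354 CPM in Rescue. Smooth muscle contractile genes had 0 of 13 past the fold rule and 0 called, which likewise says little, and a median of 0.48. Tagln was at 163 and 126 CPM in KO, 326 and 183 CPM in basal and 138 and 71.2 CPM in Rescue. Whether growth rate has a part in the interaction was not tested. Epithelial markers summed to 0.663 to 28.7 CPM, mostly Krt19.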
